A study of Mus musculus with 15 samples.

Results

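The step from E8.25 to E8.75 was followed in single heart cells of mouse embryos in which Nkx2-5Cre had switched on the Rosa26tdTomato reporter. Every cell with at least 1000 genes above 0 CPM was taken (CPM, counts scaled to the same sum in every cell). These were 182 cells at E8.75, 94 in replicate 1 and 88 in replicate 2, and 187 cells at E8.25, 94 in replicate 1 and 93 in replicate 2, so 369 of the 1339 cells that met the same criterion in the 15 libraries of the series. Cre recombinase under the name of a gene marks cells that have used that gene and all their descendants, so a marked cell need not express Nkx2-5 at the time of picking; the sources used here do not describe how the Cre allele was built. All groups used here carry the same reporter and are called by the Cre they carry and the stage. No cell name was shared between libraries. Isl1Cre cells at E8.75 (62 and 81 cells) and at E8.25 (94 and 94 cells) serve as the same step in the other lineage, with which no library is shared.

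Both E8.75 titles carry embryo number 1 and both E8.25 titles carry embryo number 3, so the libraries of a stage probably come from 1 embryo. Both Isl1Cre titles carry embryo number 1 at E8.75 and embryo number 2 at E8.25, so the same holds there. The p-values therefore measure the spread between libraries, and stage, embryo and the sex of the embryo cannot be told apart here. Total counts were 14893165 and 11423717 in the E8.75 libraries and 21286938 and 14355989 in the E8.25 libraries, with a median cell of 123730 and 101792 counts at E8.75 and of 185456 and 115013 counts at E8.25. Levels below are the mean CPM over the cells of a library, and a change is a log2 change of E8.75 over E8.25 on the log2(CPM + 1) scale with its SE, from limma over 10670 genes. A gene is called where the Benjamini-Hochberg adjusted p over all these genes is under 0.05. In libraries averaged over cells, more cells of a kind and more RNA per cell cannot be told apart unless cells are examined one by one.

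Over this interval the mouse heart tube lengthens and loops, and its chambers begin to balloon out. Cardiomyocytes at this age already contract, while cells of the second heart field are still being added at both poles of the tube. Myosin heavy chain 6 (Myh6) comes to mark the atria and myosin heavy chain 7 (Myh7) the ventricles, natriuretic peptide A (Nppa) marks the working myocardium of the chambers, and Wnt2 is a signal of the inflow pole. Red cells of the yolk sac enter the circulation at about this time, carrying embryonic globins.

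The cells were mostly cardiomyocytes by their markers at both stages. The 7 cardiomyocyte markers together (Tnnt2, Myl7, Actc1, Tnni3, Ttn, Myh6 and Nkx2-5) had 31429 and 31080 CPM at E8.75 and 26434 and 24268 CPM at E8.25. Of all cells kept, 90.4% and 94.3% at E8.75 and 88.3% and 82.8% at E8.25 had at least 1000 CPM of Tnnt2, cardiac troponin T, together with fewer than 500 CPM of endothelial markers. The 8 endothelial markers summed to 220 and 148 CPM at E8.75 and to 316 and 368 CPM at E8.25. Endoderm markers summed to 51.6 to 85.8 CPM over the 4 libraries, proepicardial markers to 8.00 to 33.5 CPM and macrophage markers to at most 3.37 CPM. Surface ectoderm markers summed to 696 and 1111 CPM at E8.75 and to 884 and 722 CPM at E8.25, and smooth muscle markers to 5112 and 6459 CPM at E8.75 and to 5447 and 4828 CPM at E8.25. Of the 4 neural crest markers, Sox10, Foxd3 and Tfap2b were at 0 in all 4 libraries. The other, Ets1, had 24.4 and 7.45 CPM at E8.75 and 24.6 and 45.7 CPM at E8.25.

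The count of called genes at this step was small and depended on the libraries and the tool. Of the 10670 genes, 27 were called, 14 of them higher at E8.75 (0.131%) and 13 lower (0.122%), together 0.253%. The count was 70 without E8.25 replicate 2, 15 without E8.25 replicate 1, and 98 (38 higher and 60 lower) with DESeq2 on summed counts. At an unadjusted p under 0.05 there were 1008 genes (9.45%). The step before it, E8.25 against E7.75 in the same lineage, gave 1452 called genes (13.6%), and the step after it, E9.25 against E8.75, gave 182 (1.71%). These steps share the E8.25 or the E8.75 libraries with the one described, so their counts are not independent of it. Of the 27 genes, 4 are sex-linked, 3 are embryonic globins and 20 are neither.

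**Figure D1:**
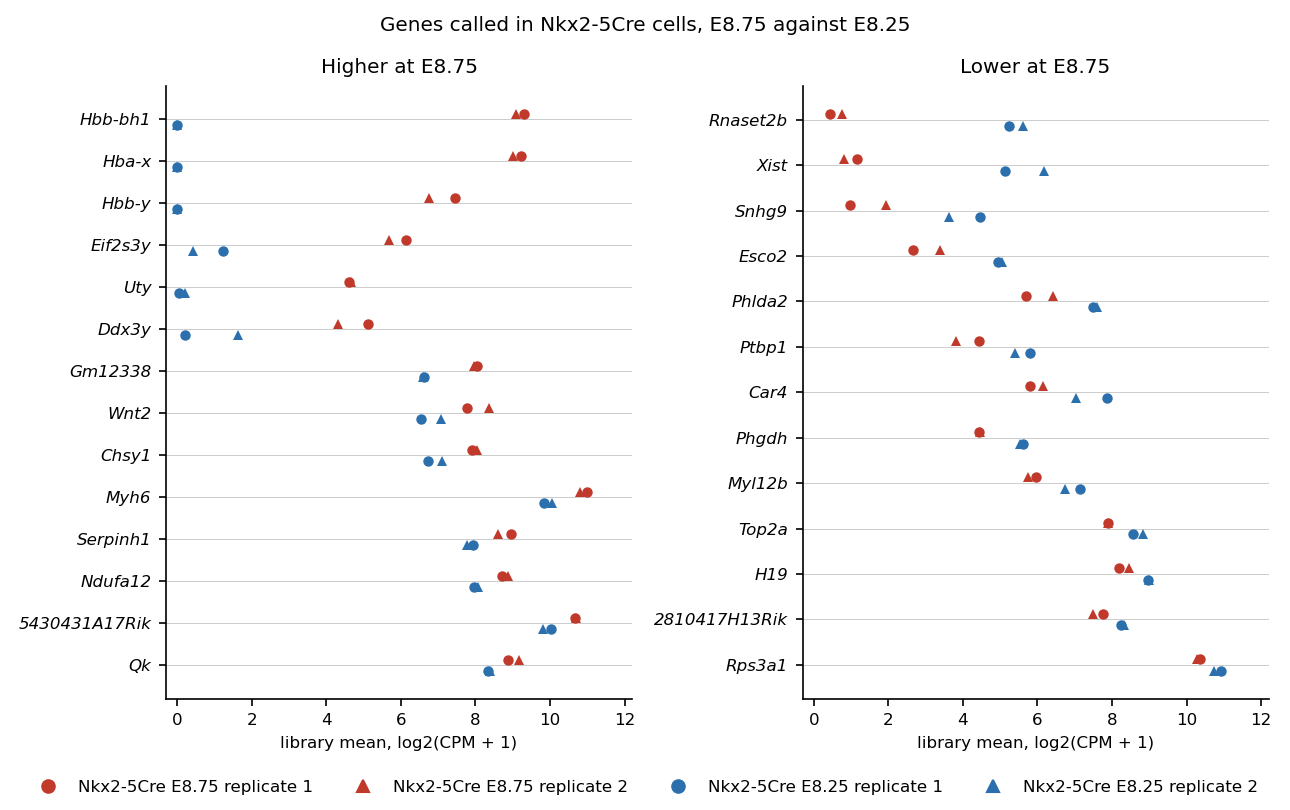
Mean level of the 27 called genes in each Nkx2-5Cre library, as log2(CPM + 1), E8.75 in red and E8.25 in blue, with a circle for replicate 1 and a triangle for replicate 2. The 14 genes on the left were called higher at E8.75 and the 13 on the right lower. In none of them did the libraries of the stages overlap, which genes called from these same libraries tend to show.

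The 2 called genes of the muscle and signalling panel were Myh6 and Wnt2, both higher at E8.75. Myh6, the alpha myosin heavy chain, had 2018 and 1781 CPM in the E8.75 libraries, against 913 and 1065 CPM in the E8.25 libraries. Both E8.75 libraries lay above both E8.25 libraries, and the log2 change was 0.95 ± 0.17 (SE, limma adjusted p = 0.0164). The median cell shifted as well, with 1809 and 1614 CPM at E8.75 and 773 and 901 CPM at E8.25. At least 1000 CPM were found in 74.5% and 68.2% of E8.75 cells and in 39.4% and 43.0% of E8.25 cells, so the difference was seen in the bulk of the cells. Myh6 lies at chr14:54941921-54966927 on the minus strand (GRCm38), beside its close relative Myh7, and the sources used here do not say whether reads were counted by strand. Its call was lost without E8.75 replicate 1 (limma adjusted p = 0.103), without E8.75 replicate 2 (0.0828) and without E8.25 replicate 1 (0.194), and edgeR on summed counts gave 0.0653.

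Myh6 was the 1 called gene of 16 tested in the thick filament list. The other 15 were not called, though 6 of the 16 were higher and 1 lower at an unadjusted p under 0.05. Myl7, the atrial regulatory light chain, had 11875 and 12610 CPM at E8.75 and 10266 and 8695 CPM at E8.25 (log2 change 0.38 ± 0.10, limma adjusted p = 0.174). Myh7 had 856 and 700 CPM at E8.75 and 616 and 821 CPM at E8.25, and its libraries overlapped. Myl2, the ventricular regulatory light chain, had 3561 and 2992 CPM at E8.75 and 2708 and 2182 CPM at E8.25, without overlap, and a log2 change of 0.43 ± 0.19 (limma adjusted p = 0.478). The list's median log2 change was 0.23, with 15 of 16 values above 0, while 49.6% of all genes tested were above 0 and their median was 0.00 to 2 decimals.

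No gene of the other contractile lists was called, and their members stood on both sides of 0, with 10 of 15 thin filament, 13 of 16 Z-disc and 13 of 15 calcium handling genes above it. The medians were 0.22 over 15 thin filament genes, 0.24 over 16 Z-disc genes and 0.23 over 15 calcium handling genes. An alternative chosen after seeing the data took cells with high Tnnt2 only, at least 1000 CPM of it and under 500 CPM of endothelial markers. There the same medians were 0.10, 0.14 and 0.10, and that of the thick filament list was 0.10, against 0.23 over all cells kept. Tnnt2 itself had 6445 and 6566 CPM at E8.75 and 4379 and 5135 CPM at E8.25 (log2 change 0.46 ± 0.12, limma adjusted p = 0.171). Titin (Ttn), the molecular spring of the sarcomere, had 3480 and 3536 CPM at E8.75, against 1585 and 3106 CPM at E8.25, so 1 E8.25 library came close to both E8.75 libraries. Tcap, which caps titin at the Z-disc, had 172 and 161 CPM at E8.75, against 110 and 73.8 CPM at E8.25 (log2 change 0.88 ± 0.21, limma adjusted p = 0.127). The muscle form of a cytochrome oxidase subunit, Cox6a2, had 455 and 374 CPM at E8.75, against 212 and 155 CPM at E8.25, and missed the threshold narrowly (log2 change 1.18 ± 0.26, limma adjusted p = 0.0584). Tcap and Cox6a2 were picked out after their values were seen.

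Wnt2, a secreted Wnt ligand expressed toward the inflow end of the heart, had 217 and 328 CPM at E8.75, against 91.5 and 133 CPM at E8.25. The groups did not overlap and the log2 change was 1.27 ± 0.24 (SE, limma adjusted p = 0.0274). Its call was lost without E8.75 replicate 2 (limma adjusted p = 0.434) and without E8.25 replicate 1 (0.303), and edgeR on summed counts gave 0.140. More cells carried it at a clear level. At least 200 CPM were found in 34 of 94 and 44 of 88 cells at E8.75, which is 36.2% and 50%, and in 13 of 94 and 21 of 93 cells at E8.25, which is 13.8% and 22.6%. Between 100 and 300 CPM lay 25 and 22 cells at E8.75 and 14 and 20 cells at E8.25. With every cell thinned to 5000 counts, a Wnt2 count was seen in 51.1% and 63.5% of E8.75 cells and in 21.7% and 35.2% of E8.25 cells.

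The Wnt2-rich cells of E8.75 differed from the other E8.75 cells in the same way in both libraries. Myh6 averaged 2784 and 2206 CPM in the cells with at least 200 CPM of Wnt2 and 1584 and 1356 CPM in the others. Vsnl1, a calcium sensor enriched in the sinus venosus and atria, averaged 60.0 and 67.8 CPM in them and 11.1 and 17.2 CPM in the others, and the T-box factor gene Tbx5 averaged 90.8 and 77.5 CPM in them and 38.1 and 39.8 CPM in the others. Chamber and ventricular genes ran the other way, with Nppa at 59.7 and 120 CPM in the Wnt2-rich cells against 593 and 663 CPM in the others. Myl2 averaged 2416 and 2307 CPM in them and 4210 and 3676 CPM in the others. At E8.25 the Nppa difference was there too (105 and 47.2 CPM in Wnt2-rich cells, 617 and 415 CPM in the others). Myl2 ran the same way as well, at 1466 and 1342 CPM in Wnt2-rich cells and 2908 and 2426 CPM in the others. So did Vsnl1, at 26.1 and 25.5 CPM against 16.0 and 5.23 CPM, and Myh6, at 945 and 1291 CPM against 908 and 999 CPM. Tbx5 stood at 37.8 and 58.2 CPM in Wnt2-rich cells of E8.25 and 39.2 and 41.3 CPM in the others. Nr2f2, Tbx3 and Angpt1 were higher in the Wnt2-rich cells of both E8.75 libraries and of E8.25 replicate 2. In E8.25 replicate 1 they were lower, at 1.07 against 3.40, 11.4 against 20.8 and 10.1 against 22.6 CPM. Tbx18, a proepicardial marker gene, was lower in the Wnt2-rich cells of every library, at 0.52 and 2.38 CPM against 1.02 and 5.11 CPM at E8.75. These are values of cells within libraries, given with no test.

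Other genes of the atrial, inflow and sinus venosus list had mostly positive changes without passing the test. Of its 14 genes tested, 1 was called (Wnt2), 12 were above 0 and the median log2 change was 0.84, which fell to 0.61 with cells thinned to 5000 counts. Tbx3, a repressor that keeps conduction tissue from becoming working muscle, had 40.3 and 37.2 CPM at E8.75, against 19.5 and 17.7 CPM at E8.25 (log2 change 1.03 ± 0.33, limma adjusted p = 0.320). Nr2f2, which specifies atrial identity, had 12.1 and 28 CPM at E8.75, against 3.08 and 13.9 CPM at E8.25, with overlap. The atrial light chain Myl4 had 7306 and 9030 CPM at E8.75, against 8084 and 7892 CPM at E8.25, and overlapped as well.

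Nppa, Cck and the other chamber genes gave no call. Nppa had 400 and 391 CPM at E8.75, between the 546 and 332 CPM of the E8.25 libraries, with a log2 change of -0.10 ± 0.29 (limma adjusted p = 0.960). Its RNA came from a minority of cells at both stages: the median cell had 39.3 and 59.2 CPM at E8.75 and 87.8 and 26.9 CPM at E8.25, and at least 1000 CPM were found in 12.8% and 7.95% of E8.75 cells and in 18.1% and 11.8% of E8.25 cells. Cck, a peptide hormone gene, had 573 and 519 CPM at E8.75, against 420 and 310 CPM at E8.25 (log2 change 0.60 ± 0.20, limma adjusted p = 0.320). The chamber working myocardium list had a median log2 change of -0.13 over 14 genes and the ventricular list -0.14 over 11 genes, with no gene called in either. With thinned cells these medians were 0.06 and 0.12, so their sign was not stable.

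**Figure D2:**
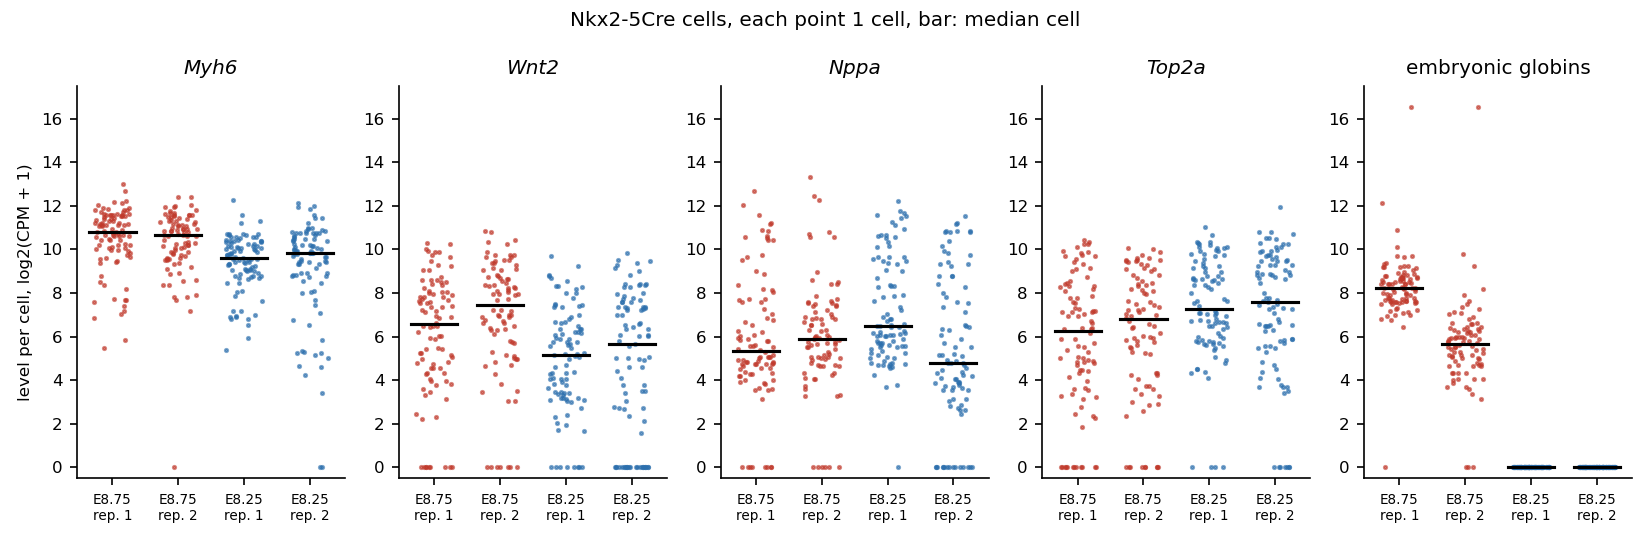
Level of Myh6, Wnt2, Nppa, Top2a and the summed embryonic globins (Hbb-bh1, Hba-x and Hbb-y) in every Nkx2-5Cre cell, as log2(CPM + 1), with a bar at the median cell of each library. The median of Myh6 and of Wnt2 was higher in both E8.75 libraries than in both E8.25 libraries, Nppa was high in a minority of cells at both stages, and the globins were at 0 in every E8.25 cell.

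The heart transcription factor genes of the panel gave no call. Nkx2-5, whose locus drives the Cre in name, had 218 and 208 CPM at E8.75, against 276 and 255 CPM at E8.25 (log2 change -0.31 ± 0.16, limma adjusted p = 0.573). Isl1, the second heart field factor, was low at both stages, with 15.4 and 7.98 CPM at E8.75 and 9.71 and 24.5 CPM at E8.25. Tbx20, needed for chamber growth, had 279 and 238 CPM at E8.75, against 177 and 186 CPM at E8.25, without overlap (limma adjusted p = 0.383). Tdgf1, the Nodal co-receptor Cripto, had 136 and 366 CPM at E8.75, against 422 and 489 CPM at E8.25 (log2 change -1.02 ± 0.29, limma adjusted p = 0.208). Of the panel's 51 genes 49 were tested, and 2 were called.

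Top2a, the topoisomerase that untangles chromosomes before mitosis, fell to 235 and 238 CPM at E8.75, against 381 and 453 CPM at E8.25. The E8.75 libraries were nearly equal and both below the E8.25 libraries, with a log2 change of -0.80 ± 0.13 (SE, limma adjusted p = 0.00440). It was called without any 1 of the 4 libraries, but not with cells thinned to 5000 counts (limma adjusted p = 0.0725), with all cells of the files (0.189) or with only the 4 libraries fitted (0.198). Also lower was 2810417H13Rik, now Pclaf, a partner of the replication clamp PCNA, with 217 and 178 CPM at E8.75 and 302 and 317 CPM at E8.25 (log2 change -0.65 ± 0.13, limma adjusted p = 0.0486). Esco2, which acetylates cohesin in S phase, had 5.31 and 9.36 CPM at E8.75, against 29.5 and 32.2 CPM at E8.25 (log2 change -1.97 ± 0.38, limma adjusted p = 0.0274). Leaving out 1 library ended the call of Pclaf in each of the 4 cases (limma adjusted p from 0.0561 to 0.434) and that of Esco2 in 3 of them (0.0812 to 0.185), all but E8.75 replicate 2.

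Top2a and Pclaf are cell cycle genes, and the CCAAT box is a common element of such promoters, so their RefSeq promoters (GRCm38.p6, 250 bases before the start and 50 after it) are shown with CCAAT on either strand in capitals. Top2a lies at chr11:99024140-99024439 on the minus strand and holds 6 copies, and Pclaf lies at chr9:65890073-65890372 on the plus strand and holds 2. At least 1 copy was found in 37.4% of the 32851 promoters of this length.
Top2a: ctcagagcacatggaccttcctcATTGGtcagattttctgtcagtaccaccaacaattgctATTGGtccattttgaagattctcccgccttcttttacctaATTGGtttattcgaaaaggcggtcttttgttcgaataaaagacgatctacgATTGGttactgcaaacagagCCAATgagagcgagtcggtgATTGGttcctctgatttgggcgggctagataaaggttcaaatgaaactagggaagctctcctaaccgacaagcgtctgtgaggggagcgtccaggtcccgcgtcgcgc
Pclaf: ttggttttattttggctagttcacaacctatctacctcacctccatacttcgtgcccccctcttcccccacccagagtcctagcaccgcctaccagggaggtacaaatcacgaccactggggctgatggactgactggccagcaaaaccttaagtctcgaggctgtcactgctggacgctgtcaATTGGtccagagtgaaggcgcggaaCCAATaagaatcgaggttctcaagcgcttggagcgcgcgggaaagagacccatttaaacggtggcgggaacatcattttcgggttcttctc

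The mitosis list as a whole leaned the same way, although Top2a was its 1 called gene. Of 42 genes tested, 38 were below 0, against 50.4% of all genes, and the median log2 change was -0.39; it was -0.40 with cells thinned to 5000 counts. Plk1, a kinase of mitotic entry, had 20.4 and 32.1 CPM at E8.75, against 57.8 and 64.1 CPM at E8.25, just outside the threshold (log2 change -1.22 ± 0.27, limma adjusted p = 0.0607). The summed RNA of the 42 genes in the median cell was 3275 and 3902 CPM at E8.75 and 4677 and 6071 CPM at E8.25, and at equal depth 3000 and 3600 CPM at E8.75 and 4400 and 6200 CPM at E8.25. Of the 36 genes of DNA replication and S phase none was called, and their median was -0.17. The cells overlapped widely between stages, and the 90th percentile was 9914 and 10271 CPM at E8.75 and at 10681 and 12523 CPM at E8.25.

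A few growth and matrix genes were also called. Phlda2, an imprinted gene that restrains growth of the placenta, fell to 50.8 and 85.0 CPM at E8.75, against 180 and 191 CPM at E8.25 (log2 change -1.48 ± 0.25, limma adjusted p = 0.00872). H19, an imprinted long non-coding RNA of the Igf2 locus, had 288 and 349 CPM at E8.75, against 499 and 508 CPM at E8.25 (log2 change -0.66 ± 0.13, limma adjusted p = 0.0284). Both lie on chromosome 7, Phlda2 at chr7:143501545-143503150 and H19 at chr7:142575529-142578143 on the minus strand (GRCm38). They were the 2 called of 22 imprinted genes tested, and Igf2 and Cdkn1c, imprinted genes of the same chromosome, gave no call, with Igf2 at 512 and 452 CPM at E8.75 and 578 and 651 CPM at E8.25. Without E8.75 replicate 1 neither was called (limma adjusted p = 0.120 and 0.234), nor without E8.25 replicate 1 (0.0703 and 0.162), and without E8.25 replicate 2 H19 was not (0.0540); edgeR and DESeq2 on summed counts gave adjusted p = 0.173 and 0.187 for Phlda2.

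Serpinh1, the collagen chaperone Hsp47, had 492 and 387 CPM at E8.75, against 244 and 216 CPM at E8.25 (log2 change 0.93 ± 0.15, limma adjusted p = 0.00847). Chsy1, which builds chondroitin sulfate chains, had 238 and 262 CPM at E8.75, against 106 and 137 CPM at E8.25 (log2 change 1.05 ± 0.16, limma adjusted p = 0.00315). Both were higher in every E8.75 library. Of the 28 genes of cardiac jelly and matrix none was called, against 0.253% of all genes tested, and their median was 0.02. Without E8.75 replicate 1 Serpinh1 missed the threshold (limma adjusted p = 0.0978), and Chsy1 missed it without E8.75 replicate 2 (0.0723) or E8.25 replicate 1 (0.0699). Car4, a membrane-bound carbonic anhydrase, had 55.1 and 70.5 CPM at E8.75, against 233 and 129 CPM at E8.25 (log2 change -1.46 ± 0.25, limma adjusted p = 0.00891). Phgdh, the first enzyme of serine synthesis, had 20.7 and 21.1 CPM at E8.75, against 47.8 and 45.4 CPM at E8.25 (log2 change -1.12 ± 0.21, limma adjusted p = 0.0234). Car4 missed the threshold without E8.75 replicate 1 (limma adjusted p = 0.108) or E8.25 replicate 1 (0.207), and Phgdh without E8.75 replicate 1 (0.103), E8.75 replicate 2 (0.136) or E8.25 replicate 1 (0.185).

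Among RNA-binding and mitochondrial genes, Qk, a splicing regulator, had 468 and 576 CPM at E8.75, against 323 and 332 CPM at E8.25 (log2 change 0.67 ± 0.14, limma adjusted p = 0.0470). Ptbp1, another splicing regulator, had 20.4 and 13.1 CPM at E8.75, against 55.0 and 40.9 CPM at E8.25 (log2 change -1.47 ± 0.29, limma adjusted p = 0.0284). So Qk was higher and Ptbp1 lower in every E8.75 library. Ndufa12, a subunit of complex I, had 418 and 466 CPM at E8.75, against 248 and 265 CPM at E8.25 (log2 change 0.79 ± 0.14, limma adjusted p = 0.0100). It was the 1 called of 82 oxidative phosphorylation genes, whose median was 0.05. Without E8.75 replicate 2 none of Qk, Ptbp1 and Ndufa12 was called (limma adjusted p = 0.482, 0.376 and 0.222), nor without E8.25 replicate 1 (0.223, 0.309 and 0.0921), and without E8.25 replicate 2 Qk was not (0.0858).

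Myl12b, a non-muscle myosin light chain, had 61.1 and 53.1 CPM at E8.75, against 140 and 105 CPM at E8.25 (log2 change -1.08 ± 0.20, limma adjusted p = 0.0223). It was not called without E8.75 replicate 1 (limma adjusted p = 0.0637), E8.75 replicate 2 (0.225) or E8.25 replicate 1 (0.284). Of the 74 cytosolic ribosomal protein genes none was called, 70 were below 0 and the median was -0.15. Rps3a1, a ribosomal protein gene outside the name pattern of that list, was called, with 1302 and 1239 CPM at E8.75 and 1942 and 1714 CPM at E8.25 (log2 change -0.52 ± 0.10, limma adjusted p = 0.0284). It was called in 1 of the 4 fits with a library left out, that without E8.25 replicate 2, and the adjusted p in the others was 0.115 to 0.284.

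Some called genes are non-coding or share sequence with other genes, and their values are uncertain where reads could be split. Gm12338, annotated as a processed pseudogene at chr11:75599763-75599954 (GRCm38), had 264 and 249 CPM at E8.75, against 97.8 and 96.1 CPM at E8.25, and was called without any 1 of the libraries (log2 change 1.40 ± 0.17, limma adjusted p = 0.000133). Snhg9, a small nucleolar RNA host gene on the strand opposite another annotated gene, had 0.947 and 2.81 CPM at E8.75, against 21.1 and 11.3 CPM at E8.25 (log2 change -2.59 ± 0.51, limma adjusted p = 0.0284). The long non-coding RNA 5430431A17Rik had 1614 and 1668 CPM at E8.75, against 1049 and 897 CPM at E8.25 (log2 change 0.76 ± 0.13, limma adjusted p = 0.00872). Snhg9 was not called without E8.75 replicate 1 (limma adjusted p = 0.202) or E8.25 replicate 1 (0.346), and 5430431A17Rik not without E8.75 replicate 2 (0.138) or E8.25 replicate 2 (0.0565).

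Rnaset2b, a lysosomal ribonuclease with a near-identical copy in Rnaset2a, was near 0 at E8.75. It had 0.348 and 0.681 CPM at E8.75, against 36.4 and 47.8 CPM at E8.25 (log2 change -4.82 ± 0.47, limma adjusted p = 9.44e-06). It was above 0 in 6 and 8 cells at E8.75 and in 74 and 72 cells at E8.25, while Rnaset2a was listed at 0 in all 15 libraries. Over the other groups it did not follow stage: it was at 36.0 to 45.8 CPM in the Isl1Cre libraries of E8.25, E8.75 and E9.25, and at 1.74 CPM or less in both lineages at E7.75 and in Nkx2-5Cre at E9.25.

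The sex-linked genes, named like Esco2, Ptbp1 and Rnaset2b after their values were seen, did not overlap between the stages. Xist, the RNA that silences an X chromosome in female cells, had 1.24 and 0.768 CPM at E8.75, against 33.9 and 70.7 CPM at E8.25 (log2 change -4.65 ± 0.48, limma adjusted p = 1.7e-05). The Y-linked genes went the other way, with Eif2s3y at 69.6 and 50.4 CPM at E8.75 and 1.33 and 0.349 CPM at E8.25, Uty at 23.5 and 24.2 CPM at E8.75 and 0.0406 and 0.150 CPM at E8.25, and Ddx3y at 33.9 and 19 CPM at E8.75 and 0.158 and 2.08 CPM at E8.25. Xist was thus near 0 where the Y-linked genes were present, and the reverse. The Isl1Cre libraries split in the same way at these stages, with Xist at 0.222 and 0.178 CPM at E8.75 and 49.3 and 96.5 CPM at E8.25. What part sex has in the other changes was not tested. Without E8.25 replicate 1 Ddx3y missed the threshold (limma adjusted p = 0.0530).

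The embryonic globin genes had the highest log2 changes of the 27. Hbb-bh1 had 628 and 547 CPM at E8.75, Hba-x 592 and 511 CPM and Hbb-y 174 and 107 CPM, and all 3 were at 0 in both E8.25 libraries. Over the summed counts of the group, Hbb-bh1 was at least 3293-fold higher at E8.75, Hba-x at least 2940-fold and Hbb-y at least 880-fold, taking 3 counts over both E8.25 libraries as the floor. The limma adjusted p was 1.13e-09 for Hbb-bh1, 1.46e-09 for Hba-x and 6.08e-07 for Hbb-y. DESeq2 on summed counts called none of them (adjusted p = 0.0593, 0.279 and 0.263). At E9.25 the Nkx2-5Cre libraries had 0.151 and 0.250 CPM of Hbb-bh1, 0.601 and 0 CPM of Hba-x and 6.03 and 21.2 CPM of Hbb-y. All 3 were at 0 in both Isl1Cre libraries of E8.75. The Isl1Cre E9.25 library had 169, 42.7 and 5.56 CPM of Hbb-bh1, Hba-x and Hbb-y.

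Nearly all cells of the E8.75 libraries held some globin RNA, and 1 cell in each held most of it. That cell had 94242 CPM of the 3 globins in replicate 1 and 95832 CPM in replicate 2, which is 71.9% and 93.5% of the library's summed globin CPM. It also had 929 and 2143 CPM of Tnnt2, against 6612 and 6531 CPM in the median cell. Among the other cells 92 of 93 and 84 of 87 had globin counts, with a median of 300 and 47.5 CPM. At E8.25 no cell of 94 and of 93 had a count, which allows a share of cells with a count of up to 3.19% and 3.23% and sets no limit on cells with less RNA than gives a count. Low counts in nearly every cell beside 1 very rich cell occurred in both E8.75 libraries; whether RNA passed between cells was not tested. Leaving out the 4 and 1 cells with at least 1000 CPM of globins, a choice made after seeing the data, kept the calls of Hbb-bh1 and Hba-x and ended that of Hbb-y (limma adjusted p = 0.0670).

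The CACCC box is an element of globin promoters, and the RefSeq promoters of Hba-x (GRCm38.p6 chr11:32276350-32276649, plus strand) and Hbb-y (chr7:103853158-103853457, minus strand) are shown with CACCC on either strand in capitals. Hba-x holds 2 copies and Hbb-y 1, and 57.5% of the 32851 promoters of this length hold at least 1.
Hba-x: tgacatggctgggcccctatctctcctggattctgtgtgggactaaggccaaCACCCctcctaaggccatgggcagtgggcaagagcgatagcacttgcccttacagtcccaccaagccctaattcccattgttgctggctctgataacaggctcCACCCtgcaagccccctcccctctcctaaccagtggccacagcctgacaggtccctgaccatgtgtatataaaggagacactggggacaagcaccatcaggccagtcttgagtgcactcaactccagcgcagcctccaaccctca
Hbb-y: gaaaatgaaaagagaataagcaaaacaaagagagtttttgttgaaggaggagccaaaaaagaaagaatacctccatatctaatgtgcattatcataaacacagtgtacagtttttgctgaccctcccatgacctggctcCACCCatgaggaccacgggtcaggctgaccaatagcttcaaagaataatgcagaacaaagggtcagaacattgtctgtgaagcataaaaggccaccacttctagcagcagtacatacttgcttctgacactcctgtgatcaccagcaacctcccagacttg

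The endothelial list had the lowest median of the lists, with no gene called. Of its 24 genes 23 were below 0 and the median log2 change was -1.26. In cells with high Tnnt2 only it was -0.60, but that set leaves out cells with at least 500 CPM of endothelial markers. The smaller median there may thus follow in part from the choice of cells. Ramp2, part of the adrenomedullin receptor of vessels, had 37.9 and 13.9 CPM at E8.75, against 74.0 and 82.3 CPM at E8.25 (log2 change -1.71 ± 0.40, limma adjusted p = 0.0936). Plvap, a protein of endothelial fenestrae, had 37.5 and 12.5 CPM at E8.75, against 88.6 and 62.7 CPM at E8.25 (log2 change -1.72 ± 0.48, limma adjusted p = 0.209). Cells with at least 500 CPM of the endothelial markers numbered 8 and 4 at E8.75 and 8 and 11 at E8.25. Hes1, a Notch target, had 34.3 and 24.1 CPM at E8.75, against 46.3 and 103 CPM at E8.25 (log2 change -1.23 ± 0.39, limma adjusted p = 0.312), and none of the 11 Notch genes was called.

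Across the 49 lists, 9 had a called gene and 40 had none, and Wnt2 stands in 3 of the 9. With only 0.253% of all genes called, most lists of these sizes would hold none, so an empty list says little about its genes. The highest median after the inflow list, leaving blood aside, was 0.49 over the 12 genes of ion channels and pacemaking, with no gene called. With thinned cells the ion channel median was 0.06. The list of cardiomyocyte cell junctions had 0.39 with thinned cells and 0.44 without thinning, so the rank of the ion channel list did not hold at equal depth. Fatty acid and ketone oxidation had a median of 0.17 over 24 genes and glycolysis 0.10 over 30 genes, and neither held a called gene. Ldha, which makes lactate, had 3563 and 3500 CPM at E8.75 and 3545 and 3497 CPM at E8.25.

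**Figure D3:**
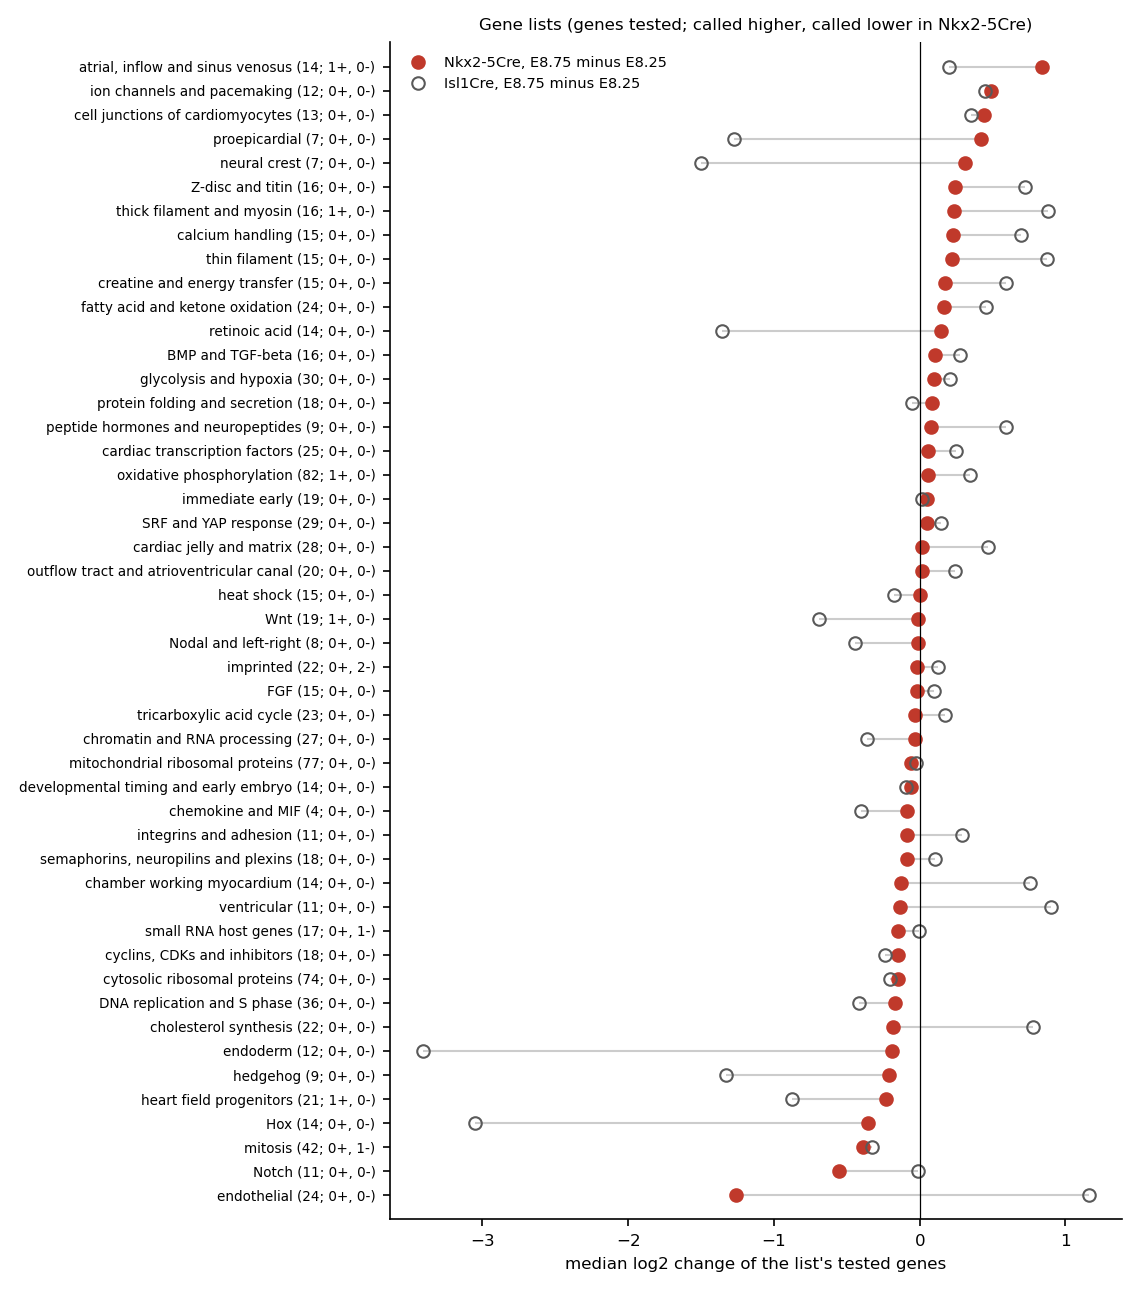
Median log2 change, E8.75 minus E8.25, over the tested genes of 48 gene lists, filled red for Nkx2-5Cre and open grey for Isl1Cre, with the number of genes tested and of genes called higher (+) and lower (-) in Nkx2-5Cre beside each name; the blood list (median 2.73 over 7 genes in Nkx2-5Cre) is left off. Most Nkx2-5Cre medians lie near 0, the inflow list at 0.84 and the endothelial list at -1.26.

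The same interval in Isl1Cre cells gave 1173 called genes (11% of those tested), 563 higher (5.28%) and 610 lower (5.72%), and the difference between the steps was called for 114 genes (1.07%), 52 with a more positive change (0.487%) and 62 with a more negative one (0.581%) in Nkx2-5Cre. The standard deviation of the log2 changes over all genes was 0.51 in Nkx2-5Cre and 0.75 in Isl1Cre. Of the 27 genes called in Nkx2-5Cre, 16 were also called in Isl1Cre, which is 59.3% of the Nkx2-5Cre calls and 1.36% of the Isl1Cre calls, and 4 of the 16 are the sex-linked ones. The 563 genes higher in Isl1Cre had a median log2 change of 0.18 in Nkx2-5Cre, with 390 above 0, and the 610 lower ones a median of -0.20, with 441 below 0.

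For several contractile and chamber genes the change was larger in Isl1Cre, and the difference between the lineages passed the test. The libraries of each group in this test probably come from a single embryo, so lineage and embryo cannot be told apart in it. Nppa had a log2 change of -0.10 in Nkx2-5Cre and 2.17 in Isl1Cre, a difference of -2.27 ± 0.41 (SE, limma adjusted p = 0.00953). In Isl1Cre cells it had 492 and 354 CPM at E8.75, against 121 and 72.7 CPM at E8.25, so at E8.25 both Isl1Cre libraries lay below both Nkx2-5Cre libraries. Cck showed a difference of -1.51 ± 0.28 (limma adjusted p = 0.0112), Tnni3, the adult form of cardiac troponin I, one of -1.36 ± 0.28 (0.0265) and Myl2 one of -1.18 ± 0.26 (0.0372). In the thick filament list 1 of 16 genes was called higher in Nkx2-5Cre and 12 in Isl1Cre, and the difference itself was called for 5 of them, all with the smaller change in Nkx2-5Cre. For Myh6, called in both lineages, the difference of 0.31 ± 0.24 was not called (limma adjusted p = 0.626), nor was that for Wnt2, at 1.04 ± 0.35 (0.168).

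In the endoderm list of 12 genes tested, the difference was called for 5 genes with the more positive change in Nkx2-5Cre and for 1 with the more negative one. Spink1, a protease inhibitor of endoderm, had 59.1 and 78.5 CPM at E8.75 and 44.0 and 39.2 CPM at E8.25 in Nkx2-5Cre, while in Isl1Cre it had 18.7 and 22.4 CPM at E8.75 and 331 and 248 CPM at E8.25 (difference 4.42 ± 0.47, limma adjusted p = 4.03e-05). The keratin gene Krt18 showed a difference of 2.22 ± 0.23 (3.84e-05 as limma adjusted p). Of 14 Hox genes tested none was called lower in Nkx2-5Cre and 11 were in Isl1Cre, but the difference itself was called for 1 of the 14. In Nkx2-5Cre all 39 Hox genes of the list summed to 22.6 and 26.1 CPM at E8.75 and 37.7 and 38.7 CPM at E8.25. They were thus low there at both stages, and a fall had little room to be called. In the endothelial list none of 24 genes was called higher in Nkx2-5Cre and 8 were in Isl1Cre, and the difference was called for 7, among them Ramp2 at -4.0 ± 0.56 (limma adjusted p = 0.00111). The part of cell make-up in these differences was not tested; cells with at least 500 CPM of endothelial markers numbered 11 and 9 in the Isl1Cre libraries at E8.75 and 9 and 5 at E8.25.

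**Figure D4:**
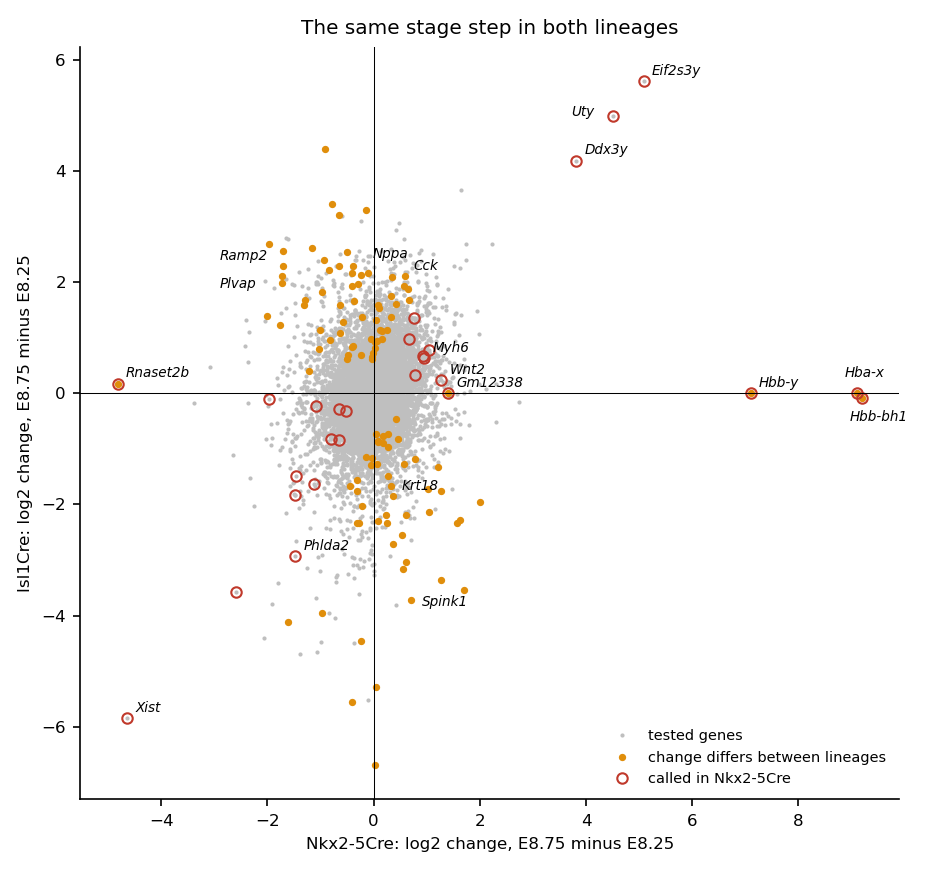
Log2 change, E8.75 minus E8.25, of each of 10670 genes in Nkx2-5Cre (horizontal) and Isl1Cre (vertical), with the 27 genes called in Nkx2-5Cre ringed in red and the 114 genes whose change differed between the lineages in orange. The sex-linked genes lie along the diagonal, the globins lie near 0 on the Isl1Cre axis, and Nppa lies near 0 in Nkx2-5Cre (-0.10) and at 2.17 in Isl1Cre.

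Over all 4 stages of Nkx2-5Cre, several called genes had their highest or lowest level at E8.75. Myh6 averaged 380 ± 107 CPM at E7.75, 989 ± 108 CPM at E8.25, 1900 ± 168 CPM at E8.75 and 1071 ± 114 CPM at E9.25 (SD, n = 2 each). Wnt2 averaged 168 ± 49.0, 112 ± 29.4, 273 ± 78.3 and 65.9 ± 17.1 CPM at the same stages, and Top2a 317 ± 39.9, 417 ± 51.6, 237 ± 2.13 and 355 ± 12.5 CPM. From E8.75 to E9.25 the log2 change was -0.85 for Myh6 (limma adjusted p = 0.0151), -2.04 for Wnt2 (0.000128) and 0.56 for Top2a (0.0279). This later step uses the same E8.75 libraries, so a deviation of these libraries would appear in both steps with opposite signs. Phlda2 had its largest drop earlier in this lineage, with 754 ± 119 CPM at E7.75, 186 ± 8.18 CPM at E8.25 and 67.9 ± 24.2 CPM at E8.75, whereas in Isl1Cre it averaged 783 ± 4.76 CPM at E8.25 and 107 ± 51.7 CPM at E8.75.

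**Figure D5:**
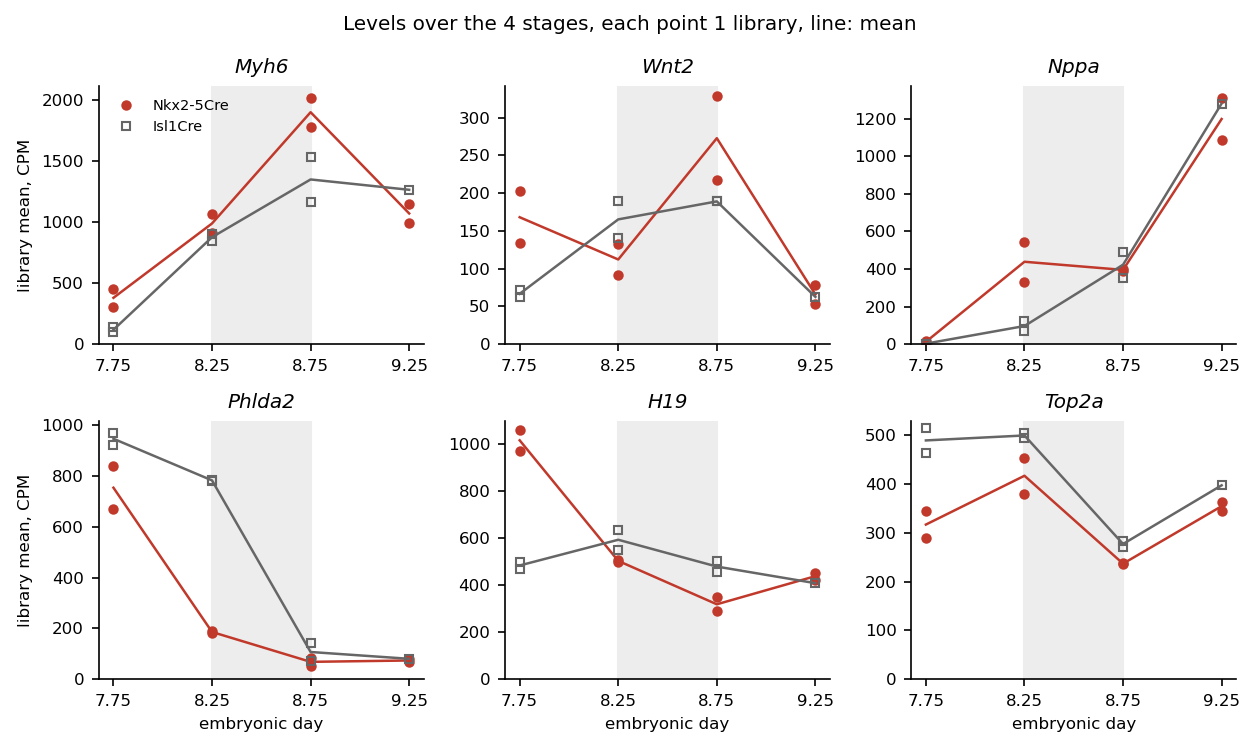
Library mean CPM of Myh6, Wnt2, Nppa, Phlda2, H19 and Top2a from E7.75 to E9.25 in Nkx2-5Cre (red circles) and Isl1Cre (open grey squares), with a line through the group means and the step from E8.25 to E8.75 shaded. In Nkx2-5Cre, Myh6 and Wnt2 are highest at E8.75 and Top2a and H19 are lowest there, and Phlda2 drops a stage earlier than in Isl1Cre.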

How the data were processed

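Single heart cells were picked after sorting or digestion, and the 3' ends of their cDNA were sequenced with a cell barcode and molecular identifier by a modified Smart-seq2, per the labels' protocols. The authors deposited CPM for 23154 genes in each cell. CASAVA 1.8, TopHat2 2.0.12, HTSeq and mm10 are named in the submitters' processing notes; counting parameters, strand and whether reads or identifiers were counted are not stated in the sources available here. Low values in the deposited CPM are whole multiples of 1 count per cell (within 0.1 of a step, up to 20 steps, 100% of such values), so count tables were recovered for edgeR and DESeq2. In 1 cell of Nkx2-5Cre E8.25 replicate 2 a count is worth close to a round CPM value, so whole multiples there could also come from rounding, and the recovery could not be checked for that cell; it stayed in.

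Cells with at least 1000 genes above 0 CPM were kept, 1339 of 1400. No doublet caller was run. The mean CPM of each library was scaled by TMM (edgeR 4.0.16) and fitted as log2(CPM + 1) with limma 3.58.1 in R 4.3.3, with trended variance, 1 mean per group, all 15 libraries and 7 residual degrees of freedom. A gene was tested where at least 2 libraries reached 5 CPM. The difference between the Nkx2-5Cre and Isl1Cre steps is the interaction contrast of the same fit. The design named edgeR for counts and limma for CPM, and the values are CPM. An exact permutation of 2 against 2 libraries cannot go below p = 0.333. On data simulated for this comparison, 200 of 9587 genes were changed. At a log2 size of 1, 95% were recovered, and at a size of 2, 100%, with 8 false calls. The simulation gave every gene 1 common spread, taken from the median variance within groups, and changed only genes with a log2 level of at least 5. It therefore does not give the share of real changes that the test would find.

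The members, panel and lists were chosen with earlier results of these data known. The text names called genes whose log2 level averaged 5 or more and whose groups did not overlap, up to 15 each way, every panel gene the results turn on, up to 4 called genes of a described list or else its highest gene, and the 8 largest differences of each sign between lineages. Other genes were named after their values were seen, among them Ddx3y, Eif2s3y, Esco2, Ptbp1, Rnaset2b, Uty, Xist, Cox6a2, Tcap, Vsnl1, Nr2f2, Plvap, Esam, Plk1, Pyy and Hes1. Positions are from GENCODE M21 (GRCm38). Alternatives were other pseudocounts, expression filters, scaling and cell filters, thinning, each library left out, a replicate block, edgeR and DESeq2 1.42.0.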

Additional observations from a re-analysis of the deposited data

Results flagged for a closer look

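For 35 named genes the step from E8.25 to E8.75 differed between Nkx2-5Cre and Isl1Cre cells by the limma interaction test (adjusted p under the threshold over all genes). The values are the log2 change in Nkx2-5Cre minus that in Isl1Cre, so a negative value means a more negative change in Nkx2-5Cre. Among genes of muscle and of the chambers the differences were -2.27 for Nppa, -1.51 for Cck, -1.01 for Myh7, -1.18 for Myl2, -0.89 for Myl3, -0.78 for Myl4, -0.91 for Tnni1, -1.36 for Tnni3, -1.59 for Acta1, -0.83 for Acta2 and -1.82 for Tdgf1. Of these, Tdgf1 was called in neither lineage alone, and the others were called higher in Isl1Cre and not in Nkx2-5Cre.

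The globins and a pseudogene had a more positive change in Nkx2-5Cre, with 9.28 for Hbb-bh1, 9.10 for Hba-x, 7.10 for Hbb-y and 1.40 for Gm12338. Further positive differences were 3.92 for Tbx1, 2.74 for Tbx3, 1.33 for Krt8, 4.42 for Spink1, 2.22 for Krt18, 2.39 for Pola2, 1.86 for Epb4.1l4aos, 1.82 for Rab33b and 1.43 for Bex1. Spink1 and Krt18 had the lowest adjusted p of the positive ones outside the globins (4.03e-05 and 3.84e-05 by limma). Tbx1 was under the 5 CPM minimum in the Nkx2-5Cre libraries, at 2.02 and 2.83 CPM at E8.75 and 0.198 and 0 CPM at E8.25. Its E8.75 level came from 2 and 3 cells.

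Negative differences outside muscle were -4.0 for Ramp2, -3.84 for Plvap, -2.99 for Esam, -3.33 for Gngt2, -2.97 for Pyy, -2.57 for Gas7, -2.35 for Adamts13, -2.14 for Fos, -1.23 for Apoe, -1.61 for Plk1 and -4.99 for Rnaset2b. Ramp2, Plvap and Esam are endothelial genes, and for Esam and Plk1 neither lineage alone gave a call.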

How the results depend on the processing

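None of the 27 genes changed sign in any of the 19 alternatives, and none was called in every one of them. The count of 27 became 10 with only the 4 libraries compared in the fit and 16 with all cells. It was 10 with cells thinned to 5000 counts, 3 with contractile cells without endothelial markers and 98 with DESeq2. The cause was not tested. The contractile filter asked for at least 100 CPM each of Tnnt2, Myl7 and Actc1. It also asked for fewer than 2 of the 8 endothelial markers above 0. That left 32 and 47 cells at E8.75 and 18 and 34 at E8.25, while 83 and 77 E8.25 cells passed the high Tnnt2 filter. Leaving out 1 of the 4 libraries gave 15 to 70 calls, with 31 without E8.75 replicate 1, 20 without E8.75 replicate 2, 15 without E8.25 replicate 1 and 70 without E8.25 replicate 2; 9 of the 27 genes were called in all 4 of these fits. The split of 14 higher and 13 lower became 27 and 7 with no expression filter, and 38 and 60 with DESeq2; without TMM scaling it was 16 and 15. The count of 114 genes that differed between the lineages became 58 with no filter, 29 with thinned cells, 7 with contractile cells, 46 with high Tnnt2 cells only (chosen after seeing the data) and 291 with DESeq2, and 59 to 135 with 1 library left out. With edgeR on summed counts the step had 25 calls, 16 of them shared with the 27. Same-numbered libraries did not deviate together (r of -0.0255 between the E8.25 and E8.75 libraries, -0.0329 to 0.157 over 21 pairs of groups), so the numbers do not pair them; a replicate block gave 33 calls, with all 27 among them, and 125 for the difference. For single named genes 221 values lost and 18 gained a call, and 2588 kept theirs. Depth limits genes near the 5 CPM minimum, and counting errors do not cover differences between embryos.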
